A study of Mus musculus with 4 samples.

Results

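Of the 60900 probes measured on a mouse long noncoding RNA and mRNA array, 1102 carried names that began with humanlincRNA. They were chosen by that name alone among the noncontrol probes. The array held 1104 of them, and 2 were left out because their spot was not uniform on 1 array. A name is made of humanlincRNA, a number, a plus or a minus sign and the ending _P1. The array held 557 such numbers, of which 547 had a plus and a minus probe, 8 had a minus probe alone and 2 had a plus probe alone. Each of these probes was printed in 1 spot. The sign was taken as the strand, and the files do not say against what it is measured. They pair these probes with no gene, sequence or position, so the members are described by name and signal only, and what a probe designed from a human name matches in the mouse was not analysed here.

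Long intergenic noncoding RNAs (lincRNAs) are RNA polymerase II transcripts that lie between protein-coding genes and carry no long open reading frame. They are often less abundant than mRNAs and more restricted to certain cell types, and their sequence is poorly conserved between mammals, while their position is sometimes conserved. Some lincRNAs take part in the conversion of fibroblast-like precursors into fat cells, which is driven by the transcription factors PPARγ and C/EBPα.

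The study measured RNA from a pair of mouse lines on 4 arrays. C3H10T1/2 is a fibroblast-like mesenchymal line and 3T3-L1 a preadipocyte line, and each was sampled at day 0 and at day 4 after induction of adipocyte differentiation. There was 1 array per group, so no difference within a line or within a day has a replicate check. The scanned arrays name no gene for nearly all probes, so the labelled cell types could not be checked against adipocyte or fibroblast markers. The labels name neither the agents of the induction nor separate cultures.

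Fewer human-named probes than probes overall gave a signal well above background, a call that the scanner software makes for each spot. In C3H10T1/2, 247 of 1102 (22.4%) were above background at day 0, against 59% of all 60900 probes, and 273 (24.8%) at day 4, against 60.1%. In 3T3-L1, 292 (26.5%) were above background at day 0, against 63.9%, and 288 (26.1%) at day 4, against 60.6%. The 649 probes named for mouse lincRNAs lay near them, at 24.3%, 25.3%, 28.2% and 27.7% on the arrays in the same order. The share was thus low for probes of either species name. Of the 58128 probes with the prefix ASMM10P, the bulk of the array, between 60.4% and 65.4% were above background. Of 300 negative control spots, between 3 and 6 per array were called above background.

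**Figure D1:**
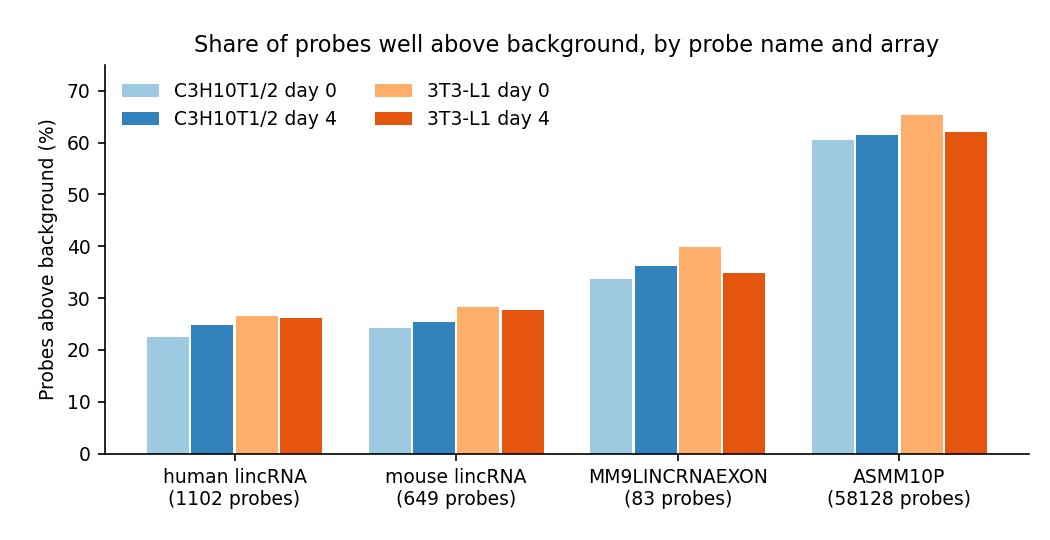
Share of probes well above background (percent, bars from 0) on each of the 4 arrays, for probes grouped by the start of their name. The human lincRNA probes lie between 22.4% and 26.5%, beside the mouse lincRNA probes and below the probes named ASMM10P, which lie between 60.4% and 65.4%.

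Detection of a given probe was mostly all or none. Of the 1102 probes, 760 (69.0%) were not above background on any array and 222 (20.1%) were above it on all 4, against 31.7% and 53.9% of all probes. The remaining probes were above background on 1 array (57, or 5.17%, against 5.35% of all probes), 2 arrays (34) or 3 arrays (29). The 57 probes seen on a single array were mostly dim. They numbered 8 on the C3H10T1/2 day 0 array, 7 on the day 4 array, 18 on the 3T3-L1 day 0 array and 24 on the day 4 array. Their median signals were 50.8, 35.8, 36.2 and 34.1 intensity units, where the lowest signal called above background was 24.5, 25.1, 24.9 and 23.3.

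Most detected members were dim, and a few were among the brighter probes of the array. The level of a probe is given as the log2 of its processed intensity minus the log2 of the 75th percentile of that array, so that 0 is the 75th percentile, which was 321 and 364 units in C3H10T1/2, against 388 and 356 in 3T3-L1 at days 0 and 4. Among the 222 members above background on all arrays the median level was -1.88, with quartiles of -2.56 and -0.49, and the range ran from -3.42 to 6.13. Over the 32829 probes of all names with the same detection the median was -0.28. Between 36 and 44 members per array exceeded the 75th percentile.

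The brightest member, humanlincRNA2397+_P1, had signals of 25832 and 22137 units in C3H10T1/2 at days 0 and 4, and 32620 and 20814 in 3T3-L1. It ranked 997th of 60900 by mean level. humanlincRNA2268-_P1 gave 21525, 19136, 18488 and 18207 on the same arrays, and humanlincRNA2438+_P1 gave 17791, 17415, 19392 and 19977. On this scale these 3 probes were nearly level over the arrays, with log2 differences between days and between lines of at most 0.52. With quantile normalization the day difference of humanlincRNA2397+_P1 was larger, at -0.76 in 3T3-L1 and -0.60 in C3H10T1/2. humanlincRNA1739+_P1 ranged from 11052 to 16866 and humanlincRNA2330+_P1 from 9300 to 13352, each with its lowest signal in 3T3-L1 at day 0 and its highest in C3H10T1/2 at day 0. The next 5 by mean level, humanlincRNA0324-_P1, humanlincRNA2163+_P1, humanlincRNA1119+_P1, humanlincRNA1396+_P1 and humanlincRNA1211+_P1, had signals between 1637 and 3132. On this scale none of these 10 probes differed 2-fold between days or lines. The largest difference among them was that of humanlincRNA1211+_P1, 1.89-fold lower at day 4 in C3H10T1/2 (2733 units at day 0 and 1637 at day 4). It lay near the threshold, and with quantile normalization it passed 2-fold (log2 -1.03).

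In most pairs with a detected probe, only 1 sign was detected. Few probes of either sign were seen on at least 1 array (168 of 548 plus and 174 of 554 minus probes). At such shares many pairs show 1 sign alone even if the signs are detected independently, and strand-specific signal was not tested. Of the 545 numbers with both signs kept, 268 (49.2%) had neither probe above background on any array, and 217 (39.8%) had 1 sign on at least 1 array and the other on none. The plus probe was above background on all 4 arrays and the minus probe on none in 70 pairs, and the reverse held in 68 pairs, so neither sign prevailed. Both signs were above background on all 4 arrays in 30 pairs (5.5%). By sign, between 23.2% and 26.5% of the 548 plus probes and between 21.7% and 26.9% of the 554 minus probes were above background on an array. The 317 pairs of mouse-named probes gave similar shares, with 44.5% silent in both signs, 44.8% with 1 sign alone and 4.73% with both signs on all arrays.

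**Figure D2:**
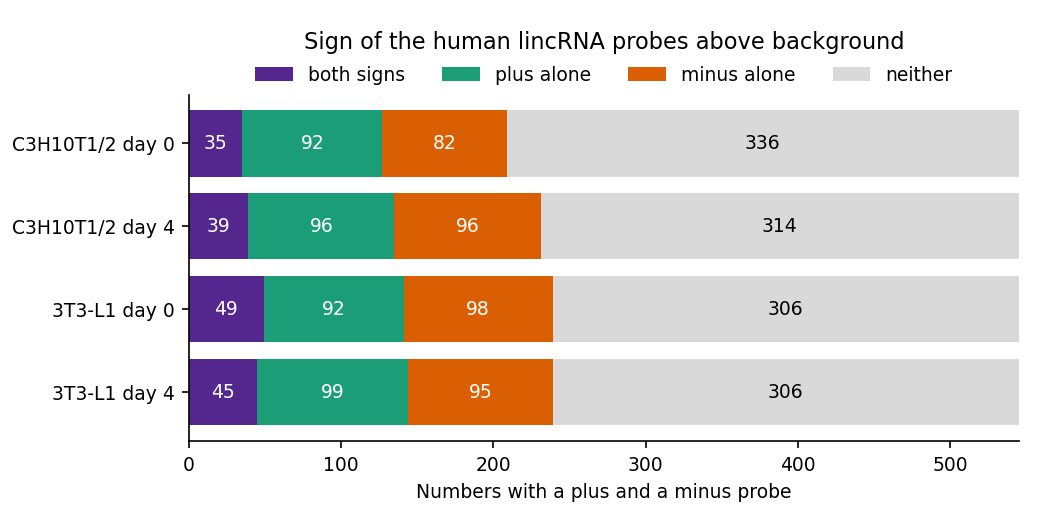
Number of human lincRNA numbers (of 545 with a plus and a minus probe) whose probes were above background with both signs, plus alone, minus alone or neither, on each array. Pairs with both signs make up 35, 39, 49 and 45, and pairs with 1 sign alone are more frequent on every array.

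Among the brightest members the partner was not above background in some pairs and was above it in others. The minus partner of humanlincRNA1739+_P1 lay between 5.46 and 6.50 units on all 4 arrays, where the plus probe was brightest. The plus partner of humanlincRNA2268-_P1 lay between 5.77 and 6.59 units, and the minus partner of humanlincRNA2330+_P1 between 5.86 and 6.44, none of them above background. humanlincRNA2397-_P1, in contrast, was above background on all arrays at 266, 315, 338 and 370 units, as was its plus partner. humanlincRNA2438-_P1 was near the detection limit, at 34.7, 34.1, 45.7 and 50.3 units. Signals of different probes depend on each probe's own binding, so no ratio between partners is given.

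Of the 6 pairs with both signs above background on all arrays and the highest mean level, the other 4 were bright in both signs. humanlincRNA2163+_P1 gave 2410, 3132, 2507 and 2104 units, and humanlincRNA2163-_P1 gave 1227, 974, 1025 and 1698. humanlincRNA1396+_P1 gave 2192, 2120, 1987 and 2144 units, and humanlincRNA1396-_P1 gave 448, 529, 450 and 493. These last probes were nearly level over the arrays. humanlincRNA0065+_P1 gave 835, 799, 923 and 614 units, and humanlincRNA0065-_P1 gave 1221, 1242, 929 and 845. humanlincRNA2246-_P1 was lowest on the 3T3-L1 day 0 array (593 units, against 1199 in C3H10T1/2, 2.44-fold lower relative to the 75th percentile), while humanlincRNA2246+_P1 gave 364 and 353 on these arrays.

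A probe was somewhat more often above background where its partner of the other sign was. In C3H10T1/2 the share was 28.7% with the partner above background and 20.6% without it at day 0, and 28.9% and 23.4% at day 4. In 3T3-L1 it was 34.0% and 23.7% at day 0, and 31.7% and 24.1% at day 4. In the mouse-named pairs the shares did not differ in this way (24.2% and 24.9% in C3H10T1/2 at day 0, 27.6% and 28.9% in 3T3-L1 at day 0). These are descriptions of the same 4 arrays, and the gap between human and mouse names was not tested.

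Differences of 2-fold or more were counted over the probes seen above background on either array of a comparison. Where only 1 array was above background, the dim one was set to the lowest level called above background there, or to its own if that was higher, so the fold is a lower bound. In C3H10T1/2, 8 of 286 members (2.8%) were at least 2-fold higher at day 4, against 8.52% of all probes, and 10 (3.5%) were at least 2-fold lower, against 7.62%. In 3T3-L1, 16 of 323 (4.95%) were higher, against 8.45%, and 15 (4.64%) lower, against 10.6%. The balance of higher and lower members changed with the scaling. Quantile normalization and the authors' deposited log2 values each gave 22 higher and 10 lower in 3T3-L1, and the percentile of probes above background on all arrays gave 6 higher and 16 lower in C3H10T1/2. In all 4 counts on the reported scale the share of the members lay below the background. The members' share rests on few probes, and their levels were lower than those of the array as a whole.

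At matched level the members' share was lower in most bins, without a test of the difference. Among probes above background on all arrays with a mean level between -3 and -2, 3 of 81 members (3.7%) differed 2-fold between days in C3H10T1/2 and 5 (6.17%) in 3T3-L1, against 8.83% and 11.9% of 5244 ASMM10P probes. Between -2 and -1 the shares were 11.5% and 7.69% of 52 members, against 13.1% and 16.4%. Between 0 and 2, none of 25 members differed 2-fold between days in either line, against 15.7% and 20.4%. Below -3 the order turned, with 1 and 2 of 21 members (4.76% and 9.52%) against 1.46% and 2.79% of 824 ASMM10P probes. The bin above 2 held 11 members, of which none differed 2-fold.

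**Figure D3:**
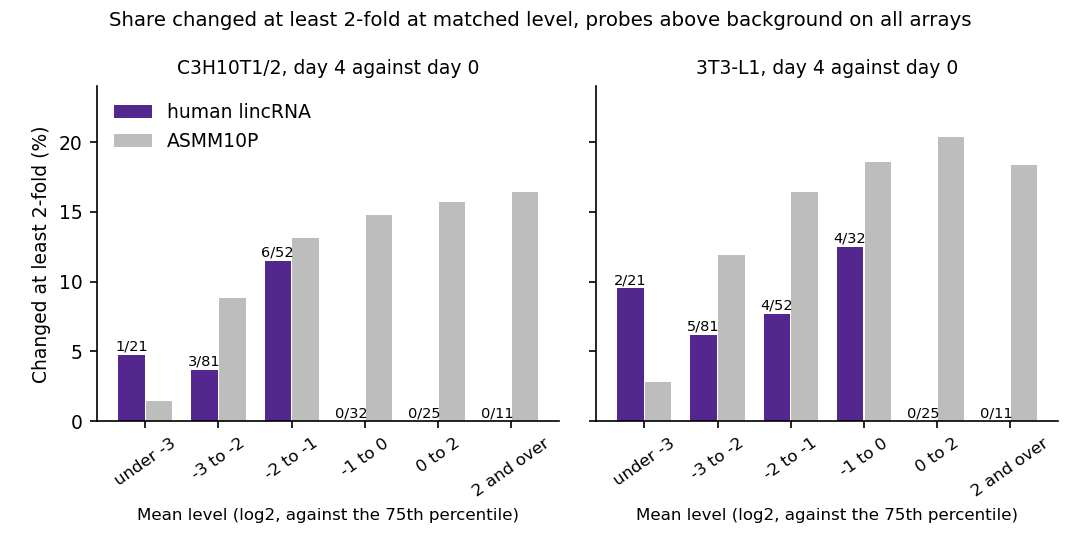
Share of probes (percent) that differed at least 2-fold between day 4 and day 0, by mean level in log2 units against the 75th percentile, for human lincRNA and ASMM10P probes above background on all 4 arrays, in C3H10T1/2 (left) and 3T3-L1 (right). The figures over the purple bars are changed members of all members, and the members lie below the ASMM10P probes in every bin except the lowest.

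The clearest day 4 difference in C3H10T1/2 was that of humanlincRNA2366+_P1. It gave 92.3 units at day 0 and 487 at day 4 in C3H10T1/2, against 91.3 and 102 in 3T3-L1, so the C3H10T1/2 day 4 array stood apart from the other 3. The fold was 4.66 in C3H10T1/2 (log2 2.22, with a scanner error of 0.22 for the difference) and 1.21 in 3T3-L1. At day 4 it was 4.69-fold lower in 3T3-L1 than in C3H10T1/2. Its minus partner lay between 21.9 and 33.7 units on all arrays. The scanner error is the software's estimate for single spots, and it does not cover the spread between cultures.

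humanlincRNA0650+_P1 and humanlincRNA0650-_P1 were the one pair in which both signs differed 2-fold between the same arrays. The plus probe gave 40.1 and 133 units in C3H10T1/2, against 148 and 140 in 3T3-L1 at days 0 and 4. The minus probe gave 58.4 and 166 units in C3H10T1/2, against 181 and 149 in 3T3-L1. Both probes were low on the C3H10T1/2 day 0 array alone. The day 4 folds in C3H10T1/2 were 2.92 for plus (log2 1.55, scanner error 0.30) and 2.51 for minus (1.33, scanner error 0.26), and in 3T3-L1 the log2 differences were 0.04 and -0.15, of which the first was -0.04 with the percentile of probes above background on all arrays. Across the pairs measured in both signs on both arrays, day differences of partners had a Pearson's r of 0.13 (Spearman's rho -0.26) over 33 pairs in C3H10T1/2 and of -0.18 (rho -0.04) over 38 pairs in 3T3-L1, values that describe pairs sharing the same arrays.

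In 3T3-L1 the lower day 4 signals included probes that were bright on the day 0 array alone. humanlincRNA0635+_P1 gave 284 and 197 units in C3H10T1/2, against 1079 and 206 in 3T3-L1, a 4.81-fold lower signal at day 4 in 3T3-L1 (log2 -2.27, scanner error 0.21) against 1.63-fold lower in C3H10T1/2. humanlincRNA0318+_P1 followed the same course in 3T3-L1, with 700 and 210 units (3.05-fold lower). In C3H10T1/2 it gave 135 and 163 units and was nearly unchanged (1.06-fold higher at day 4). At day 0 these probes were 3.15-fold and 4.30-fold higher in 3T3-L1 than in C3H10T1/2, and at day 4 only 1.07-fold and 1.32-fold. humanlincRNA0502-_P1 had lower day 4 signals in both lines, at 212 and 124 units in C3H10T1/2 (1.94-fold lower, below the threshold) and 205 and 51.2 in 3T3-L1 (3.67-fold lower). humanlincRNA1098+_P1 was close to it, with 128 and 72.7 in C3H10T1/2 (1.99-fold lower), and 112 and 28.3 in 3T3-L1, where day 4 was not above background and the fold is at least 3.63.

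Higher day 4 signals in 3T3-L1 were led by probes seen on few arrays. humanlincRNA0102-_P1 gave 435 units in 3T3-L1 at day 4 and 6.54, 6.47 and 5.71 on the other arrays, at least 19.0-fold higher at day 4. humanlincRNA1590+_P1 gave 424 units in 3T3-L1 at day 4 and 28.8 at day 0, 16-fold higher (scanner error 0.35 on the log2 scale), and 16.3 and 22.7 units in C3H10T1/2, not above background. Its minus partner stayed between 5.86 and 6.48 units. humanlincRNA0071-_P1 was higher at day 4 in both lines, at 34.6 and 121 units in 3T3-L1 (3.81-fold) and 25.1 and 56.9 in C3H10T1/2, where day 0 was not above background and the bound fell just short of 2-fold. humanlincRNA1219-_P1 gave 33.4 and 82.5 in 3T3-L1 (2.69-fold).

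In C3H10T1/2, 3 of the 4 members with the lowest day 4 signals against day 0 were seen on 1 array, and the other was humanlincRNA0717-_P1 (3.67-fold lower), which was also lower in 3T3-L1. humanlincRNA0848-_P1 gave 142 units at day 0 and 6.0 at day 4, with 5.35 and 5.89 in 3T3-L1, a fold of at least 6.41. humanlincRNA1547-_P1 gave 85.2 units at day 0 and between 5.56 and 6.7 elsewhere (at least 3.85-fold), and humanlincRNA1610+_P1 gave 71.9 and between 6.66 and 13.1 elsewhere (at least 3.25-fold). humanlincRNA1741+_P1 was seen at day 4 only, at 84.1 units, and at 5.66 to 6.53 elsewhere (at least 3.03-fold higher). humanlincRNA0848-_P1, humanlincRNA1547-_P1 and humanlincRNA1741+_P1 thus had 1 bright spot and 3 near 6 units. That form was also found in both probes left out for a spot that was not uniform, humanlincRNA0857+_P1 and humanlincRNA2319-_P1. Over the 8 spots nearest on the slide, the median log2 difference of the same arrays was 0.25 around humanlincRNA0102-_P1 and -0.85 around humanlincRNA1590+_P1. It was 0.52 around humanlincRNA0848-_P1, -0.22 around humanlincRNA1547-_P1, -0.15 around humanlincRNA1610+_P1 and 1.32 around humanlincRNA1741+_P1. The part of single spots in these differences was not tested.

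**Figure D4:**
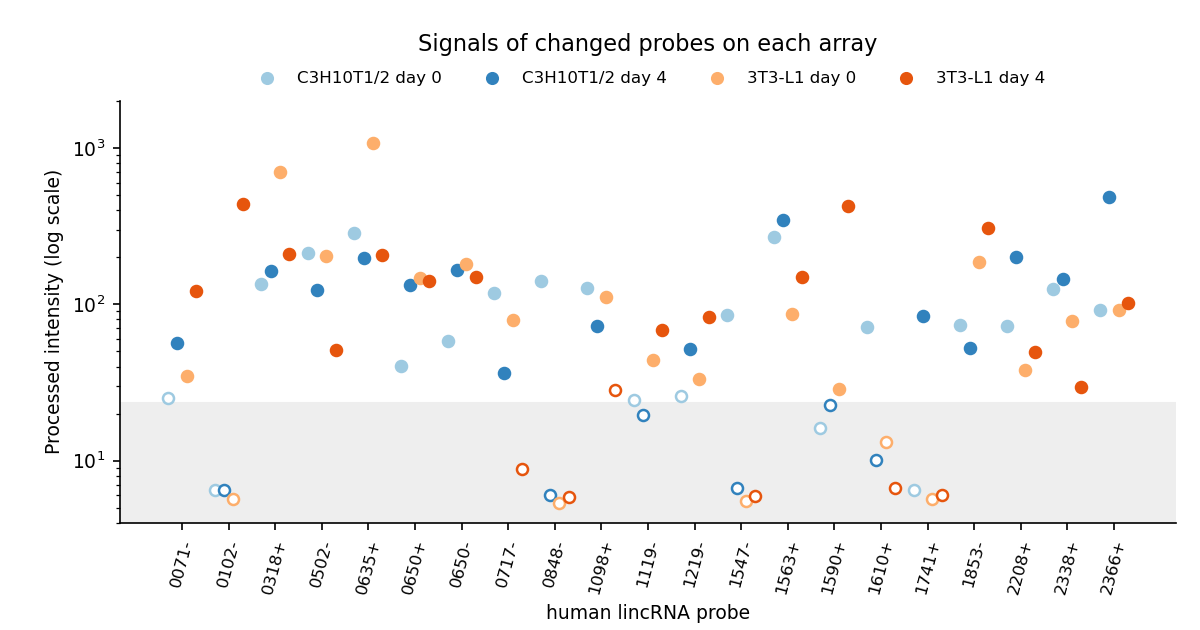
Processed intensity (log axis) of the changed human lincRNA probes chosen as highest or lowest in a comparison on the 4 arrays, with filled points above background, open points not above it, and grey shading below the lowest signal called above background on any array. Arrays are to be compared within a probe. humanlincRNA0102-_P1, humanlincRNA0848-_P1, humanlincRNA1547-_P1, humanlincRNA1610+_P1 and humanlincRNA1741+_P1 each have 1 filled point, while humanlincRNA2366+_P1, humanlincRNA0650+_P1 and humanlincRNA0650-_P1 are filled on all arrays. Labels leave out the shared start and end of the names.

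Differences shared by both lines were scarce among the members. Of 267 members above background on at least 1 array of each line, none was at least 2-fold higher at day 4 in both, against 4.2% of all probes, and 1 was at least 2-fold lower in both, against 3.58%. None was at least 2-fold higher at day 4 in C3H10T1/2 but 2-fold lower in 3T3-L1, against 0.371% of all probes, and none the reverse, against 0.133%. Shared differences were also below the background in the mouse-named probes. Of 167 of them, 2 (1.2%) were higher in both lines, 2 (1.2%) were lower in both and 0 differed in opposite ways. The one shared member was humanlincRNA0717-_P1, with 117 and 36.3 units in C3H10T1/2, against 79.1 and 8.80 in 3T3-L1 at days 0 and 4. Its day 4 signal was 3.67-fold lower in C3H10T1/2 (scanner error 0.31 on the log2 scale) and at least 3.11-fold lower in 3T3-L1, where day 4 was not above background. The 8 spots nearest to it had median log2 differences of -1.05 and -0.80 in the same comparisons, and their part in the result was not tested.

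Across the 222 members above background on all arrays, the day differences of the lines had a Pearson's r of 0.32 and a Spearman's rho of 0.33, and 115 members (51.8%) moved the same way. Over all 32829 such probes r was 0.55 and 61.9% moved the same way, and over the 140 mouse-named ones r was 0.49 and 52.9% did. These are correlations across probes on the same arrays, and they rest on 1 day difference per line. Of the 222 members, 183 (82.4%) stayed within 2-fold in all 4 comparisons of days and lines, against 68.8% of all such probes. The median range over the 4 arrays was 0.65 on the log2 scale, against 0.78 over all probes and 0.59 over the mouse-named ones. The scanner error of a day difference had a median of 0.24 in either line.

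**Figure D5:**
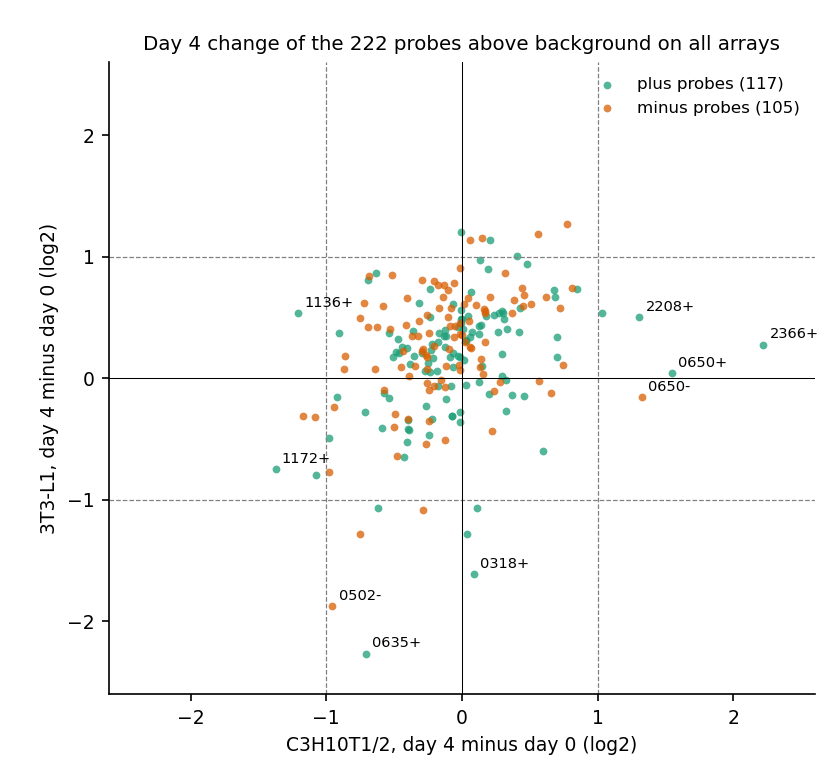
Day 4 minus day 0 level (log2) in C3H10T1/2 (x axis) and 3T3-L1 (y axis) for the 222 human lincRNA probes above background on all arrays, coloured by the sign in the name, with dashed lines at 2-fold. No probe lies beyond 2-fold in both lines. Probes past 2-fold in 1 line differ in their course in the other. Some moved little there, as humanlincRNA2366+_P1 (2.22 in C3H10T1/2 and 0.28 in 3T3-L1). Others moved the same way, as humanlincRNA0635+_P1 (-0.71 and -2.27) and humanlincRNA0502-_P1 (-0.95 and -1.88), or the opposite way, as humanlincRNA1136+_P1 (-1.21 and 0.54).

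The median member moved little. In C3H10T1/2 the median log2 difference between days of these 222 probes was -0.09, against -0.05 over all probes. In 3T3-L1 it was 0.27, against 0.07. Under the other scalings the 3T3-L1 median of the members lay between 0.17 and 0.33 and that of all probes between -0.01 and 0.06. The members' median in 3T3-L1 thus lay above that of the array under each scaling tried. This was not particular to the human names. Over probes above background on both 3T3-L1 arrays, the median was 0.30 for members, 0.18 for mouse-named probes and 0.07 for all probes. It was 0.31 for the 29 such probes named MM9LINCRNAEXON.

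limma was fitted to all 38333 probes above background on at least 2 arrays, with terms for line and day. Its error for a probe combines the difference between the lines' responses, with 1 residual degree of freedom, and a variance estimated over all probes. A call favours a like difference in both lines, but the p-value rests largely on the variance of other probes. It does not measure the spread between cultures. Of 285 members tested for day, 0 were called higher at day 4, against 1.74% of all probes, and 1 was called lower, against 1.2%. This was humanlincRNA0717-_P1 (log2 -2.46 ± 0.38 SE, limma adjusted p = 0.0458), with signals lower at day 4 in both lines. At an unadjusted limma p under 0.05 there were 23 members (8.07%), against 18.5% of all probes. The call was lost with normexp background correction (log2 -0.92, limma adjusted p = 0.128) and without the line term (limma adjusted p = 0.343), over all alternatives that held the probe the limma adjusted p ran from 1.99e-05 to 0.343, and the probe could not enter the fit of probes above background on all arrays.

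The lines were compared at each day as well. At day 0, 12 of 305 members (3.93%) were at least 2-fold higher in 3T3-L1 than in C3H10T1/2, against 7.63% of all probes, and 21 (6.89%) were lower, against 6.37%. With normexp and quantile normalization together, 2 were higher and 8 lower at day 0. At day 4, 12 of 314 (3.82%) were higher in 3T3-L1, against 6.63%, and 16 (5.1%) lower, against 8.3%. Of 277 members compared on both days, 3 (1.08%) were higher in 3T3-L1 on both, against 2.9%, and 7 (2.53%) were lower on both, against 2.78%. The share of members lower in 3T3-L1 was thus near the background at day 0 and over both days. The other shares lay below it.

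Members lower in 3T3-L1 on both days were above background on all 4 arrays in 6 of the 7 cases. humanlincRNA1563+_P1 gave 268 and 347 units in C3H10T1/2, against 87.0 and 149 in 3T3-L1, 3.72-fold lower in 3T3-L1 at day 0 and 2.27-fold lower at day 4. humanlincRNA2208+_P1 gave 72.1 and 202 in C3H10T1/2, against 38.0 and 49.4 in 3T3-L1, 2.29-fold and 4.00-fold lower. humanlincRNA0115+_P1 gave 685 and 590 units in C3H10T1/2, against 352 and 255 in 3T3-L1, and humanlincRNA2350-_P1 gave 427 and 477, and 195 and 193. The other 3 were humanlincRNA0347+_P1, humanlincRNA0638+_P1 and humanlincRNA1939-_P1, of which the last was not above background in 3T3-L1 at day 4. A further probe, humanlincRNA2338+_P1, was 4.80-fold lower in 3T3-L1 at day 4 (146 units in C3H10T1/2 and 29.7 in 3T3-L1) and 1.92-fold lower at day 0 (125 and 78.7).

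The 3 members higher in 3T3-L1 on both days were humanlincRNA1853-_P1, humanlincRNA0891+_P1 and humanlincRNA1277-_P1. humanlincRNA1853-_P1 gave 74.2 and 52.2 units in C3H10T1/2, against 187 and 309 in 3T3-L1. It was 2.09-fold higher in 3T3-L1 at day 0 and 6.04-fold higher at day 4 (log2 2.59, scanner error 0.27), and its signals moved opposite ways between days in the lines, by -0.69 and 0.84 on the log2 scale. humanlincRNA0891+_P1 gave 36.2 and 50.3 in C3H10T1/2, against 99.1 and 104 in 3T3-L1. humanlincRNA1277-_P1 was above background in 3T3-L1 only, at 68.5 and 61.7 units, against 16.8 and 9.31 in C3H10T1/2, at least 2.32-fold and 2.52-fold higher.

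Detection divided by line or by day in 26 of the 342 members seen on at least 1 array. Both arrays of 3T3-L1 but no array of C3H10T1/2 were above background for 14 (4.09%), against 2.44% of all probes, and of these only humanlincRNA1277-_P1 was 2-fold by its bounds on both days. Both arrays of C3H10T1/2 but no array of 3T3-L1 were above background for 4 (1.17%), against 0.89%. Both day 4 arrays and neither day 0 array were above background for 6 (1.75%), against 0.959%, and both day 0 arrays and neither day 4 array for 2 (0.585%), against 1.56%. None of these 12 was 2-fold by its bounds in both comparisons. humanlincRNA0660-_P1, for example, gave 19.2 and 41.0 units in C3H10T1/2, against 17.3 and 37.6 in 3T3-L1, at days 0 and 4, and humanlincRNA0319-_P1 gave 38.1 and 13.3, and 44.7 and 6.10. Of 212 mouse-named probes seen on at least 1 array, the shares in the same order of patterns were 3.77%, 0.943%, 3.77% and 1.42%.

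For line, limma called 2 of 285 members higher in 3T3-L1, against 1.71% of all probes, and 1 lower, against 1.3%. The higher ones were humanlincRNA0740+_P1 (log2 2.80 ± 0.32 SE, limma adjusted p = 0.0180) and humanlincRNA1277-_P1 (2.26 ± 0.36, limma adjusted p = 0.0468), and the lower one was humanlincRNA0512-_P1 (-2.36 ± 0.37, limma adjusted p = 0.0430). All 3 were above background in 1 line only, so the size of the fitted difference rests on signals that were not measured above background. They passed the filter of 2 arrays only through the line in which they were higher, so the calls are no independent support for a line difference. None of them could enter the fit of probes above background on all arrays. humanlincRNA0740+_P1 gave 33.6 and 45.8 units in 3T3-L1 and 5.02 and 5.37 in C3H10T1/2, and its bounds were 1.14-fold at day 0 and 1.87-fold at day 4. Its minus partner was above background on all 4 arrays, at 39.8, 36.7, 37.5 and 60.2 units. humanlincRNA0512-_P1 gave 59.3 and 43.4 units in C3H10T1/2, against 9.65 and 11.9 in 3T3-L1, with bounds of 2.88-fold and 1.82-fold. None of the 3 was called with normexp correction, with an intensity trend or without the day term, where the limma adjusted p ran from 0.0579 to 0.395 (from 4.07e-07 over all alternatives). In all, 24 members (8.42%) had an unadjusted limma p under 0.05, against 13.9% of all probes.

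The counts were lower with normexp background correction, an offset of 50 and quantile normalization applied together. There, 5 members differed 2-fold between days in C3H10T1/2 in place of 18, and 5 in 3T3-L1 (2 higher and 3 lower) in place of 31. Between lines there were 10 at day 0 in place of 33 and 6 at day 4 in place of 28. These counts were not made over all probes, so whether the fall was larger in the members was not tested. Of the members counted in the text, 4, 5, 10 and 6 in the same order were counted there as well, while quantile normalization and the authors' deposited log2 values each kept 18, 26, 32 and 28 of them. humanlincRNA2366+_P1 stayed past 2-fold in C3H10T1/2 with normexp (log2 1.60), as did humanlincRNA0635+_P1 in 3T3-L1 (-1.99), whereas humanlincRNA0650+_P1 (0.87) and humanlincRNA0650-_P1 (0.75) fell below it.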

How the data were processed

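The 4 scanner files give, per the file headers, 1-colour intensities made with Agilent Feature Extraction 11.0.1.1, background-subtracted and detrended within an array and not scaled between arrays. The authors' deposited table of log2 values (method not given in the sources used here) served as an alternative. Its column medians were all 5.93, and each column followed the log2 intensity of its array without centring (r at least 0.999 over 60804 probes). Its 2-fold counts of members (20, 32, 34 and 28) equalled those of quantile normalization, and the differences of named probes were nearly the same. The authors' values and quantile normalization are therefore not separate alternatives. All arrays lay on 1 slide and in 1 scan.

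Levels were log2 of the intensity minus the array's 75th percentile, over 60900 noncontrol probes. Scanner error is the software's error of each spot, carried to the log2 difference. limma 3.58.1 (R 4.3.3) was fitted over all probes, with Benjamini-Hochberg adjustment at 0.05. It was also run on data simulated with its own fitted variances. Such data follow the model by design, so that run gives no support to the calls made here. Other steps used Python 3.11.15 and pandas 2.3.3. The number of arrays limits the precision.

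Members, lists and tests were chosen with earlier results of these data known. The named probes are the 10 brightest, the 4 highest and 4 lowest past 2-fold per comparison, all probes shared between lines, split by line or day past 2-fold, or called by limma, the largest response differences (2 each way) and the 6 brightest pairs. Other probes named, such as those lower in 3T3-L1 on both days, were chosen after their values were seen. Alternatives were other scalings, normexp with an offset of 50 (on median signals) followed by quantile normalization, the authors' values, other filters, 1.5-fold and 4-fold thresholds and reduced limma models. The medians and directions under each scaling were added after seeing the data.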

Additional observations from a re-analysis of the deposited data

Results flagged for a closer look

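Of the 222 members above background on all arrays, 8 (3.6%) moved in opposite ways between days in the lines by more than 2 scanner errors in each, against 4.09% of all such probes. The 3 given here are those among the named probes. The difference between the lines' responses was not tested, since there is 1 array per group. humanlincRNA1136+_P1 gave 136 and 66.8 units in C3H10T1/2 at days 0 and 4, against 63.3 and 84.4 in 3T3-L1, and the response in 3T3-L1 was higher by 1.748 on the log2 scale. For humanlincRNA1853-_P1 the response in 3T3-L1 was higher by 1.53, and for humanlincRNA2163-_P1 by 1.366, with 1227 and 974 units in C3H10T1/2, against 1025 and 1698 in 3T3-L1.

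Both members left out of all comparisons had 1 bright spot that the scanner software marked as not uniform. humanlincRNA2319-_P1 gave 45496.4 units on the C3H10T1/2 day 4 array and 6.5, 5.64 and 6.02 on the others. humanlincRNA0857+_P1 gave 1476.6 units on the C3H10T1/2 day 0 array and 6.02, 6.59 and 5.90 on the others.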

How the results depend on the processing

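None of the 110 differences of members that were at least 2-fold changed direction under the other scalings or with the authors' values. This check could hardly fail, since it asked only for the sign of differences chosen as at least 2-fold. Smaller differences near 0 did change direction for some named probes. The 2-fold counts for days in C3H10T1/2, days in 3T3-L1, lines at day 0 and lines at day 4 (18, 31, 33 and 28) were 5, 5, 10 and 6 with normexp, an offset and quantile normalization together. They were 11, 19, 19 and 17 over probes above background on both arrays compared, 100, 119, 99 and 99 with no filter, 73, 100, 84 and 82 at 1.5-fold, and 2, 3, 3 and 6 at 4-fold. The 2-fold counts under these alternatives were made for the members alone, so they have no background share. The count of members changed the same way in both lines (1) was 2 with quantile normalization and with the authors' log2 values, 3 with the percentile of probes above background on all arrays, 0 with normexp, with the filter on all arrays and at 4-fold, 17 with no filter and 18 at 1.5-fold. The count of opposite changes (0) was 6 with no filter and 6 at 1.5-fold. limma called for day 2 members in place of 1 with quantile normalization, with the other percentile and with the authors' values, 0 with normexp, with the filter on all arrays and without the line term, and 24 with no filter. For line it called 0 in place of 3 with normexp, the filter on all arrays, an intensity trend or no day term, and 22 with no filter. The calls over all probes moved as well. With normexp they were 73 for day and 260 for line, in place of 1126 and 1151. With no filter they were 4098 and 3436 of 60900, and with the filter on all arrays 1749 and 674. They were 0 for day without the line term, and for line 234 without the day term and 1268 with an intensity trend. The unfiltered fits take in probes at the intensity floor, and at 1.5-fold and 4-fold the threshold itself sets the counts. For the other changes the cause was not tested. With the software's weaker call, a signal significantly different from background, the shares detected were 49.2%, 50%, 54.1% and 49.7%. No paired analysis was possible because the labels carry no replicate numbers, beyond the line term of limma, which joins both days of a line.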
